A study of Drosophila melanogaster with 22 samples.

Results

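Long noncoding and antisense RNAs were followed on 22 one-colour Affymetrix arrays of S2 cells, a cultured Drosophila line of embryonic origin that resembles blood cells. A probe set was counted as noncoding when it carried 1 gene symbol, current or as annotated, that began with a noncoding RNA prefix or CR and digits. Ribosomal RNA genes and pseudogenes were left out. Of the 18952 probe sets, 153 met the naming rule, 16 of these were pseudogenes, and 137 probe sets of 112 genes remained. They comprised 121 probe sets of 97 lncRNA genes, 15 of 14 antisense RNA genes, and 1 of a gene since reannotated as protein coding (CG46059). Neither roX1 nor roX2, the noncoding RNAs of the X chromosome dosage compensation complex, was analysed here, since 0 listed probe sets carried their names. Small nucleolar and small nuclear RNAs were likewise not analysed, since 0 probe sets carried such a name alone, and 11 probe sets that joined a noncoding RNA with other genes were left out.

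The RNA exosome is a multi-subunit nuclease that acts on RNA 3′ ends. In the nucleus it processes stable small RNAs and removes many short-lived noncoding transcripts, often with helper proteins that tag RNA or recruit the complex, and its catalytic subunits are Dis3 and Rrp6. Standard Affymetrix labelling primes on poly(A) tails, so it copies tailed RNAs and is poor at reporting RNAs without a tail.

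Cells had been given dsRNA at 30 µg/ml on days 0, 1 and 3 and were lysed on day 5. The dsRNA was directed at the cap subunits Csl4, Rrp4 or Rrp40, the ring subunits Mtr3, Rrp46 or Ski6, the nucleases Dis3 or Rrp6, or Rrp47, the partner of Rrp6; the reference cells received GFP dsRNA. There were 4 Rrp4 arrays and 2 arrays in every other group. Each of the 20 depletion arrays is titled as a biological replicate, whereas the 2 GFP arrays are only numbered. Which step was repeated is not stated, so p-values measure the spread between these arrays. The series was made to find mRNAs on which exosome subunits act.

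The targeted genes changed in mixed directions on their own arrays. Of 9, 2 were lower in their own arrays: Dis3 by limma at -1.17 (log2, adjusted p = 0.0141) and Rrp6 at -0.91 (0.0458). Another 4 (Csl4, Rrp40, Ski6 and Rrp47) were higher in their own arrays, by 1.71 to 2.68. Each of these 4 read higher on both of its own arrays than on any other array. By group mean, Dis3 and Rrp6 were lowest in their own groups. The remaining 3 were not called. Rrp4 itself was split, at 9.42 and 10.79 on arrays 1 and 2 and 7.11 and 7.52 on arrays 3 and 4. So was Mtr3, at 6.91 on Mtr3 1 and 9.39 on Mtr3 2. Groups are therefore named by label throughout, and every direction below is that of the labelled arrays. The Rrp4 arrays stood apart in the labelling controls: poly-A spike-in minus hybridization control signal was -4.60 to -2.22 (log2) there and 0.90 to 2.49 on the other 18 arrays. The 18S ribosomal RNA controls, in the deposited scaling, read 12.01 or more on Csl4 1 and on the Dis3, Rrp6, Ski6 and Mtr3 arrays, on the log2 scale, and 7.18 and 9.18 on GFP 1 and 2. Of the hemocyte genes taken as identity markers of S2 cells, 7 of 8 lay above background by their mean over all arrays. The counts were 0 of 2 muscle, 1 of 3 fat body, 1 of 2 germline and 2 of 3 neuron genes. On GFP arrays alone, Hml, srp, crq, Col4a1 and vkg had means of 10.95 to 13.34. Pxn (3.29), He (4.22) and the germline gene bam (3.34) lay under the background threshold there and passed it through the depletions. The muscle gene Act88F went the other way, with a mean of 5.27 on GFP arrays.

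Signals below are log2 values after quantile normalization, which forces 1 common distribution onto every array. A probe set was taken as above background when its mean over the 22 arrays reached the median of all probe sets, 4.67. By that definition 26 of the 137 probe sets (19.0%), of 22 genes, were above background, against 57.7% of 13468 protein coding probe sets. The 26 comprised 21 lncRNA probe sets (17.4% of them) and 5 antisense RNA probe sets (33.3%). Just inside lay asRNA:CR43964 at 4.71 and lncRNA:CR42839 at 4.72, and just outside lncRNA:CR34006 at 4.51 and asRNA:CR42871 at 4.55. At a stricter line, chosen after the values were seen, above all 17 tag controls of the array, 21 of the 137 (15.33%) and 52.91% of the protein coding probe sets remained.

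The 111 probe sets not above background had means of 1.70 to 4.55, and 88 of them touched the floor of the scale on 1 or more arrays. They included iab8, a bithorax complex transcript that hosts a microRNA, cherub, a lncRNA studied in neural stem cells and brain tumours, and asRNA:Eig63F-2, from an ecdysone-induced locus. A fit with no filter called 5 of the 111 in some comparison. CR43836 was higher on Rrp6 arrays (2.25, adjusted p = 0.00185 by limma) and CR32773 on Dis3 arrays (1.94, 0.0449), both against GFP. CR44077, CR44066 and CR43314 were lower on Dis3 arrays than on the core subunit arrays. With signals this close to the floor, sizes of these changes depend on it.

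**Figure D1:**
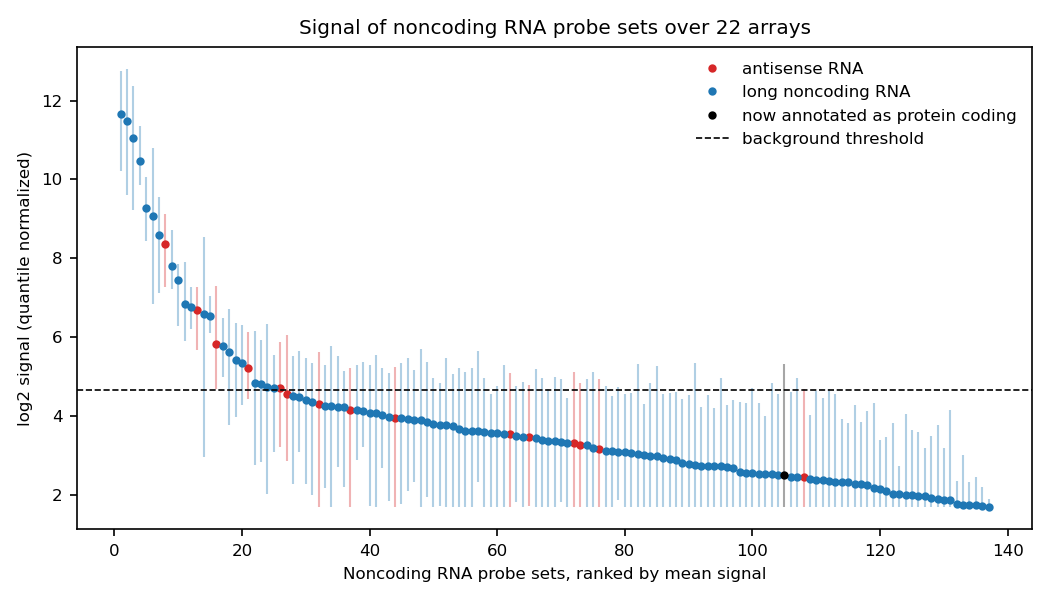
Mean log2 signal over 22 arrays of the 137 noncoding RNA probe sets, ranked, with bars from the lowest to the highest array. Red marks antisense RNAs, blue lncRNAs, black the gene now called protein coding, and the dashed line is the background threshold of 4.67, which 26 probe sets reached. Signals of different probe sets are not a measure of relative RNA amount.

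Calls among the 26 ran in both directions: 11 were higher in 1 or more depletions (42.3%, against 26.6% of all probe sets tested) and 8 lower (30.8%, against 29.6%), 2 of them both. Of those called higher, CR43785, CR42839, mimi and CR43964 had GFP means under the background threshold (3.90, 3.39, 3.76 and 3.59). They passed through arrays where they were high, so the shares called higher, here and below, depend in part on the filter. Of those called lower, CR43762, CR43751, CR44036 and CR43461 had means under the threshold in a group where they fell. At an adjusted p under 0.05, limma called 9 of the 26 on Rrp4 arrays against GFP (34.6%, against 23.8% of all 9385 probe sets tested), 8 on Rrp46 (30.8% against 19.8%), 7 each on Mtr3 (26.9% against 18.9%) and Dis3 (26.9% against 21.2%), and 6 on Rrp47 (23.1% against 20.5%). It called 5 on Ski6 (19.2% against 22.7%), 4 on Rrp40 (15.4% against 20.3%), 4 on Rrp6 (15.4% against 8.82%) and 3 on Csl4 (11.5% against 18.6%). Since 1 probe set is 3.85% of the 26, these shares lay within a few probe sets of the background. All 9 comparisons share the 2 GFP arrays.

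By direction, the 9 calls on Rrp4 arrays were all of higher signal (34.6%), where 12.5% of all probe sets tested were called higher and 11.3% lower. The 5 on Ski6 (12% of all probe sets higher, 10.8% lower) and 4 on Rrp40 (10.9% and 9.44%) were higher too. On Mtr3 arrays 5 were higher and 2 lower (10% and 8.85% of all), on Rrp46 6 and 2 (10.5% and 9.25%), on Dis3 5 and 2 (11% and 10.2%) and on Rrp47 5 and 1 (10.3% and 10.2%). The 3 calls on Csl4 were 1 higher and 2 lower (9.18% and 9.38% of all). The 4 on Rrp6 were 1 higher and 3 lower (4.27% and 4.55%), so calls of lower signal outnumbered higher ones on Csl4 and Rrp6 alone.

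Over the mean of the 9 depletions against GFP, 5 of the 26 were called (19.2%, against 21.9% of all probe sets tested), 5 higher and 0 lower (11.6% and 10.3% of all). Of these 5, CR43785 and CR42839 passed the filter through depletion arrays. The F test of differences among the 9 depletions called 16 (61.5%, against 57.7%). Dis3 against the 6 core subunits called 3 (11.5%, against 24.8%), 1 higher and 2 lower (12.7% and 12.1% of all), and Rrp6 and Rrp47 against the core called 8 (30.8%, against 38.9%), 2 higher and 6 lower (19.8% and 19.1% of all), of 6 genes. Altogether 17 of the 26 were called in 1 or more depletions (65.4%, against 53.8% of all probe sets tested), 0 in all 9 (against 1.62% of all), and 4 in none of the 13 comparisons. The 2 GFP arrays were far apart for these RNAs, with a median absolute log2 difference of 0.58 over the 26 probe sets, against 0.305 over all tested. Of 69 signed calls, 24 were kept whichever single array was left out, 23 were lost without GFP 1 and 21 without GFP 2.

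Counts of called members moved with single arrays. The share of all probe sets called in each refit is not given here, so these counts do not separate the members from the array as a whole. Without GFP 1 limma called 4 on Mtr3, 4 on Rrp46 and 2 on Rrp6, and without GFP 2 it called 2 on Rrp40, 5 on Rrp46, 4 on Dis3 and 3 over all depletions. Leaving out an array of the group itself left 1 on Csl4 (Csl4 2), 4 on Mtr3 (Mtr3 1 or 2), 2 on Rrp40 (Rrp40 2), 5 and 3 on Rrp46 (Rrp46 1 and 2), 2 and 1 on Rrp47 (Rrp47 1 and 2) and 3 and 2 on Ski6 (Ski6 1 and 2). The F test called 10 without Rrp47 1. Dis3 against the core called 5 without Dis3 1. Rrp6 and Rrp47 against the core called 3 without Rrp6 2, Rrp47 1 or Rrp47 2, 4 without Csl4 1 or Mtr3 2, and 5 without Rrp4 4, Rrp40 1, Rrp40 2, Rrp46 1 or Ski6 2.

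**Figure D2:**
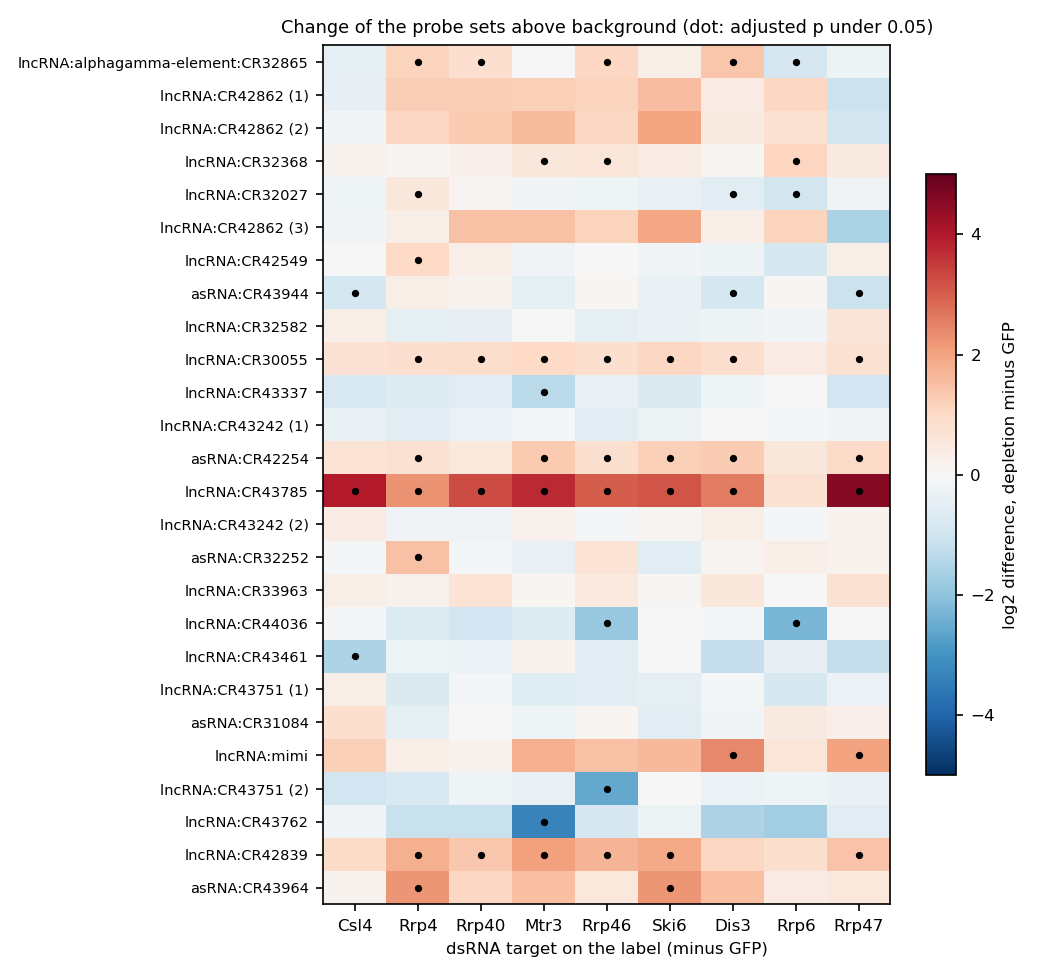
Log2 difference between each depletion and GFP for the 26 probe sets above background, ordered by mean signal, with a dot where limma's adjusted p was under 0.05. Red is higher and blue lower in the depletion; lncRNA:CR43785 is dotted in 8 of 9 columns, and numbers in brackets separate probe sets of 1 gene.

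lncRNA:CR43785 had the most calls, higher than GFP in 8 of 9 depletions. Its log2 signal was 7.34 and 8.38 on Csl4 arrays, 6.26, 6.25, 6.57 and 5.55 on Rrp4, 7.71 and 6.59 on Rrp40, 7.71 and 7.56 on Mtr3, 7.30 and 6.58 on Rrp46, and 6.65 and 7.45 on Ski6. It was 6.56 and 6.32 on Dis3, 3.70 and 5.65 on Rrp6, and 8.36 and 8.54 on Rrp47, against 2.96 and 4.83 on GFP arrays. In 8 depletions every array lay above both GFP arrays, and only the Rrp6 arrays overlapped them. The increase ran from 2.26 ± 0.53 (SE; adjusted p = 0.00623) on Rrp4 to 4.55 ± 0.62 on Rrp47 (adjusted p = 5.9e-05 by limma), and over all depletions it was 3.03 ± 0.46 (0.000118). The GFP mean of 3.90 lay under the background threshold, as did GFP 1, so these log2 differences are fitted values against a signal not above background and no fold is given. On Rrp6 arrays it was 0.78 ± 0.62 (0.509). Without GFP 1 the difference over all depletions was 2.10 (limma adjusted p = 0.0207) and the calls on Rrp4 (1.32, 0.179), Rrp46 (2.11, 0.0531) and Dis3 (1.61, 0.12) were lost, whereas the other 5 were kept under every array left out. Without GFP 2 the rises on Rrp4 and Dis3 were 3.19 and 3.48.

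The coding genes on either side of CR43785 in the Release 6 plus ISO1 MT annotation did not follow it: hng3 was at 0.19 ± 0.30 and CG13896 at -0.21 ± 0.31 over all depletions, neither called by limma. The 3 probe sets whose log2 signal was most like it over the 22 arrays, among 7824 with 1 symbol, were CG9752 (Pearson's r = 0.942), Nup93-1, a nuclear pore scaffold protein (0.936), and CG2641 (0.913). These arrays share groups and normalization, so r is a description.

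lncRNA:CR42839 lies between srp and GATAe, which encode GATA transcription factors, srp being the one that directs blood cell fate. Its log2 signal was 5.32 and 5.54 on Mtr3 arrays, 5.05 and 5.49 on Ski6, 5.32, 5.13, 5.18 and 4.96 on Rrp4, 4.94 and 5.20 on Rrp46, 4.89 and 4.76 on Rrp47, and 4.23 and 5.22 on Rrp40. It was 4.62 and 4.0 on Csl4, 4.45 and 4.40 on Dis3, and 4.43 and 3.96 on Rrp6, against 3.69 and 3.09 on GFP arrays. All 20 depletion arrays lay above both GFP arrays. The difference was 1.43 ± 0.32 over all depletions (limma adjusted p = 0.00359) and reached 2.04 ± 0.44 on Mtr3. It was called in 6 depletions, and not on Csl4, Dis3 or Rrp6 (0.92, 1.04 and 0.81). Neither neighbour was called, srp at -0.12 ± 0.22 and GATAe at -0.56 ± 0.55. Both GFP values lay under the background threshold, as did both values on Csl4, Dis3 and Rrp6, so the probe set passed it through the other depletions. Without GFP 2 the call over all depletions was lost (1.14, limma adjusted p = 0.0824).

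Of the 6 single calls of CR42839, those on Rrp4 and Mtr3 were kept whichever array was left out. The call on Rrp46 was lost without GFP 2 (1.38) or Rrp46 2 (1.55), and that on Rrp47 without GFP 2 (1.14), Rrp47 1 (1.37) or Rrp47 2 (1.5). On Rrp40 it was lost without GFP 1 (1.63), GFP 2 (1.04) or Rrp40 2 (0.84), and on Ski6 without Ski6 2 (1.66).

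asRNA:CR42254 partly overlaps BEAF-32, which encodes a chromatin insulator protein. Its log2 signal was 7.21 and 7.17 on Mtr3 arrays, 7.10 and 7.26 on Dis3, 7.26 and 6.90 on Ski6, 6.67 and 7.05 on Rrp47, 6.67 and 6.67 on Rrp46, and 6.11, 6.71, 6.84 and 6.91 on Rrp4. On Csl4 arrays it was 6.88 and 6.28, on Rrp40 6.48 and 6.38 and on Rrp6 6.39 and 6.55, against 5.67 and 6.11 on GFP arrays. Only Rrp4 1 lay within the GFP range. The antisense RNA was higher by 0.90 ± 0.20 over all depletions (1.86-fold, limma adjusted p = 0.00328) and called in 6, most on Mtr3 (1.30 ± 0.27) and Dis3 (1.29 ± 0.27), which were kept under every array left out. BEAF-32 was at 0.04 ± 0.11 over all depletions and called in none of the 9.

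Without GFP 1 the difference of CR42254 over all depletions was 0.68 (limma adjusted p = 0.125). The 4 other calls were lost under several arrays left out: Rrp4 at 0.53 without GFP 1, and at 0.73, 0.68 and 0.66 without Rrp4 2, 3 and 4. Rrp46 was at 0.56 without GFP 1 and 0.78 without either of its own arrays, Ski6 at 0.97 without GFP 1 and 1.01 without Ski6 1, and Rrp47 at 0.75 without GFP 1 and 0.78 without Rrp47 2.

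lncRNA:CR30055 lies inside Sin3A, the gene of a histone deacetylase corepressor, next to Amph, which encodes the membrane-curving protein amphiphysin. CR30055 had 7.86 and 7.60 on Mtr3 arrays, 7.70 and 7.78 on Ski6, 7.72 and 7.45 on Rrp40, 7.64 and 7.48 on Rrp46, 7.44 and 7.68 on Dis3, and 7.51, 7.47, 7.59 and 7.61 on Rrp4. It had 7.34 and 7.62 on Rrp47, 7.27 and 7.62 on Csl4, and 6.79 and 7.49 on Rrp6, against 7.15 and 6.27 on GFP arrays. All depletion arrays but Rrp6 1 lay above both GFP arrays. The difference was 0.82 ± 0.19 over all depletions (1.76-fold, limma adjusted p = 0.00488), and 7 depletions were called at 0.77 to 1.03. Without GFP 2 the call over all depletions was lost (0.38, 0.276), as were all 7 single calls (0.33 to 0.59, limma adjusted p = 0.124 to 0.482), while without GFP 1 the difference over all depletions was 1.26 and the single ones 1.21 to 1.47. In 6 of the 7 the call also fell without an array of its own: Rrp40 1 (0.73) or 2 (1.01), Mtr3 1 (0.88), Rrp46 1 (0.77) or 2 (0.93), Ski6 2 (0.99), Dis3 2 (0.72), Rrp47 1 (0.91) or 2 (0.62).

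Amph changed with CR30055 in sign and more in size, at 1.80 ± 0.21 over all depletions (limma adjusted p = 9.84e-06). It was higher than GFP in 8 of 9, again not on Rrp6 arrays (0.24 ± 0.29). Its signal was 4.58 to 7.32 on the depletion arrays, against 4.70 and 4.24 on GFP arrays, the second of which lay under the background threshold. ClC-b, on the other side of CR30055, was at 0.14 ± 0.17 over all depletions and was not called. Sin3A itself had no probe set named alone.

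lncRNA:CR32368, between Tmem43 and syd, differed most on Rrp6 arrays. It had 11.37 and 11.04 on Rrp6 arrays, 10.76 and 10.75 on Rrp46, 10.67 and 10.77 on Mtr3, 10.57 and 10.57 on Rrp47, 10.53 and 10.46 on Ski6, and 10.45 and 10.31 on Rrp40. It had 10.33 and 10.32 on Csl4, 10.31, 10.12, 10.21 and 10.17 on Rrp4, and 9.995 and 10.37 on Dis3, against 9.85 and 10.42 on GFP arrays. The Rrp6 arrays were above every other array. The call on Rrp6 arrays was lost with the 2 groups fitted alone (limma adjusted p = 0.228). In the main fit the increase on Rrp6 arrays was 1.07 ± 0.16 (2.10-fold, limma adjusted p = 0.000484) and was kept under every array left out, at 0.79 to 1.35. Over all depletions it was 0.40 ± 0.12 (0.0244), a call that was lost without GFP 1 (0.12, 0.664) and stood at 0.69 without GFP 2. The calls on Mtr3 (0.58) and Rrp46 (0.62) were lost without GFP 1 (0.30 and 0.34; 0.87 and 0.91 without GFP 2) and without either of their own arrays (0.64 and 0.53 on Mtr3, 0.62 and 0.63 on Rrp46). Neither coding neighbour was called over all depletions, Tmem43 at -0.08 ± 0.25 and syd at 0.16 ± 0.14.

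**Figure D3:**
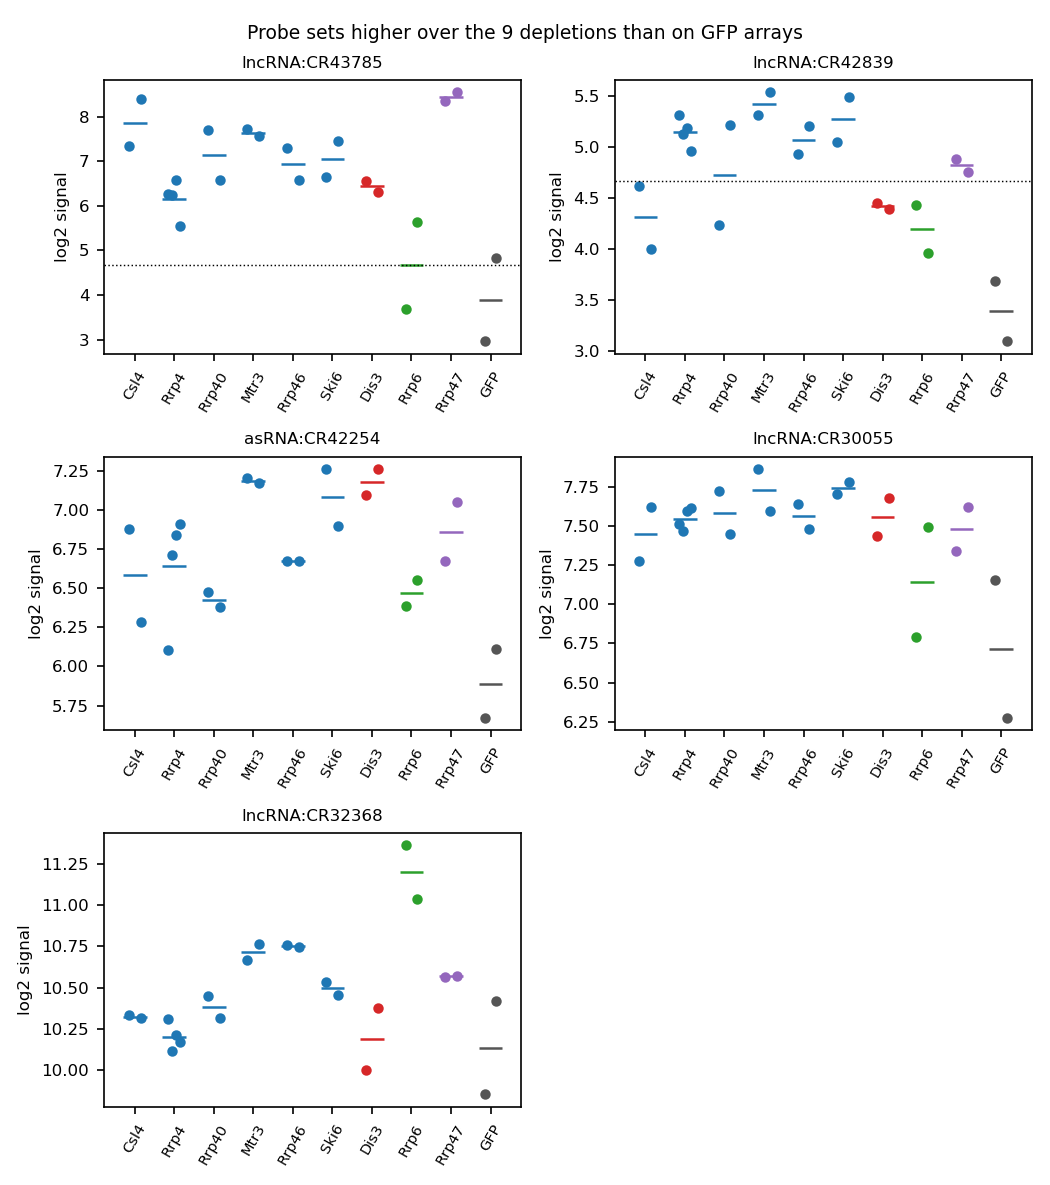
Log2 signal by array for the 5 probe sets called higher over the 9 depletions than on GFP arrays. Points are arrays, bars are group means, dotted lines mark the background threshold where the axis reaches it, and the GFP group is at the right. In the CR43785 panel the Rrp6 arrays alone overlap the GFP arrays, and in the CR32368 panel they are the highest.

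Across these 5 RNAs, 12 coding neighbours were annotated, 9 had a probe set above background, and 1, Amph, was called over all depletions. For the 22 noncoding genes as a whole, 37 distinct coding neighbours lay above background and 14 were called (37.8%, against 21.9% of all probe sets tested). Of these, 4 were higher and 10 lower (11.6% and 10.3% of all probe sets tested).

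The transcript of the alphagamma element separated the depletions from one another. lncRNA:alphagamma-element:CR32865 comes from repeats between Hsp70 genes at a heat shock locus and is induced by heat shock; its probe set carries a suffix for probes shared among sequences, so it may sum several copies. It had 12.56 and 12.75 on Dis3 arrays, 12.33, 12.26, 12.59 and 12.36 on Rrp4, 12.31 and 12.31 on Rrp46, 12.17 and 12.09 on Rrp40, 11.52 and 11.68 on Ski6, and 11.20 and 11.36 on Mtr3. It had 11.10 and 10.93 on Rrp47, 10.96 and 10.69 on Csl4, and 10.21 and 10.68 on Rrp6, against 11.71 and 10.85 on GFP arrays. Dis3, Rrp4, Rrp46 and Rrp40 arrays lay above both GFP arrays and Rrp6 arrays below both, and the F test among depletions was called (limma adjusted p = 1.28e-06).

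Against GFP the alphagamma transcript rose by 1.37 ± 0.21 on Dis3 arrays (2.59-fold, limma adjusted p = 0.000168), 1.10 ± 0.18 on Rrp4 and 1.03 ± 0.21 on Rrp46, calls kept under every array left out. Without GFP 2 the Rrp4 and Rrp46 values were 0.67 and 0.60, and without GFP 1 1.54 and 1.46. Its rise on Rrp40 (0.85 ± 0.21, 0.00833) was lost without GFP 2 (0.42) or Rrp40 1 (0.81) and was 1.28 without GFP 1. Its fall on Rrp6 (-0.84 ± 0.21, 0.0176) was lost without GFP 1 (-0.40) or Rrp6 1 (-0.60) and was -1.27 without GFP 2. The fall on Rrp6 was also lost with the 2 groups fitted alone (limma adjusted p = 0.515). Comparisons that do not use GFP held under every array left out: Dis3 against the core at 0.90 ± 0.16 (limma adjusted p = 0.000651), and Rrp6 with Rrp47 against the core at -1.02 ± 0.12 (2.2e-05). In the deposited scaling, where the median of all probe sets lay at -0.88 in this comparison, the Dis3 difference was 0.018 and was not called (limma adjusted p = 0.928). The 2 neighbouring genes, Hsp70Ba and Hsp70Bbb, had no probe set named alone.

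lncRNA:CR32027, inside Indy, the gene of a citrate transporter tied to fly lifespan, changed in opposite directions. Its log2 signal was 9.94, 10.05, 9.84 and 9.98 on Rrp4 arrays, 8.91 and 8.75 on Dis3 and 8.54 and 8.44 on Rrp6, against 9.40 and 9.40 on GFP arrays. The Rrp4 arrays were all above GFP and the Dis3 and Rrp6 arrays all below. It rose on Rrp4 by 0.55 ± 0.11 (limma adjusted p = 0.00247) and fell on Dis3 (-0.58 ± 0.13, 0.00433) and Rrp6 (-0.91 ± 0.13, 0.000247). It was also lower than on core arrays on Dis3 (-0.54 ± 0.10, 0.000864) and in the mean of Rrp6 and Rrp47 (-0.51 ± 0.07, 0.000176). Group means were 8.49 on Rrp6, 9.23 on Rrp47 and 9.37 on the core. All 5 calls were kept under every array left out. The Dis3 call against GFP was lost under median centring (-0.41, limma adjusted p = 0.107). With the 2 groups fitted alone, the calls against GFP on Dis3 and Rrp6 were lost (limma adjusted p = 0.331 and 0.352). Indy was at -0.04 ± 0.23 over all depletions and was called lower in Rrp6 and Rrp47 against the core (-0.66 ± 0.18, 0.00935). Cat, the catalase gene next to it, was lower over all depletions (-1.04 ± 0.11).

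**Figure D4:**
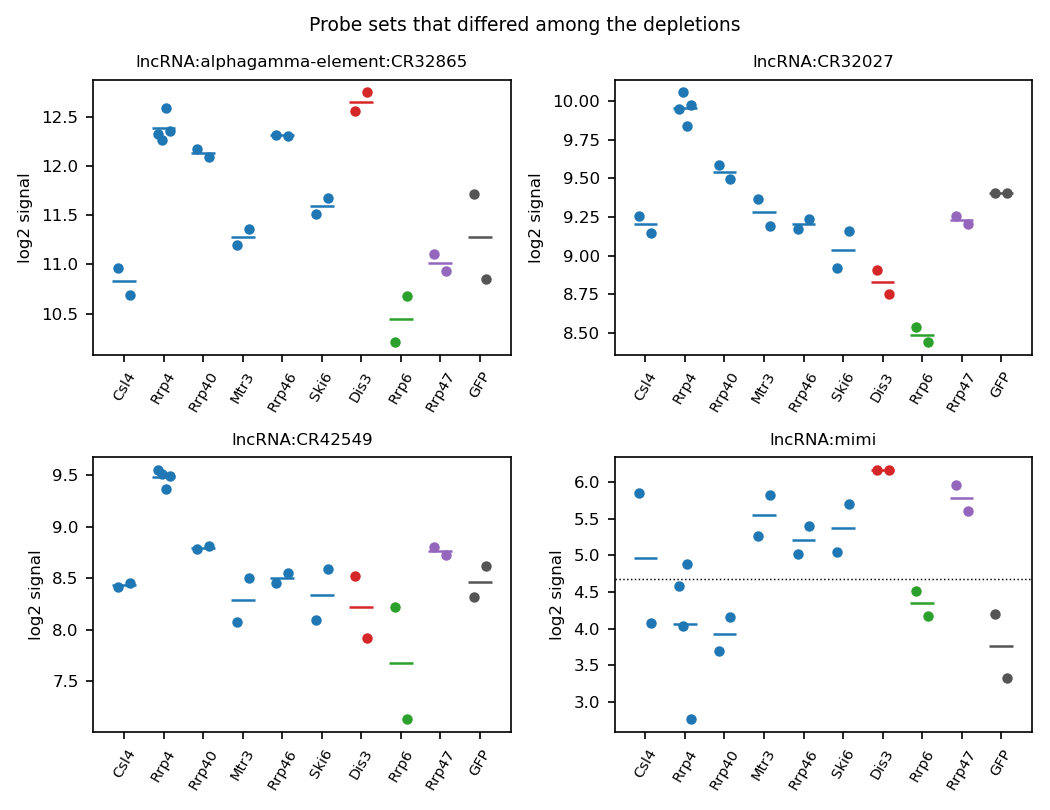
Log2 signal by array for 4 lncRNA probe sets that differed among the depletions. Points are arrays and bars group means, GFP at the right. The alphagamma transcript is high on Dis3, Rrp4, Rrp46 and Rrp40 arrays, CR32027 and CR42549 are high on Rrp4, and mimi is high on Dis3 and Rrp47.

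Of the other members, 3 were called higher on Rrp4 arrays. lncRNA:CR42549, inside mura, had 9.56, 9.51, 9.37 and 9.49 there, against 8.32 and 8.62 on GFP arrays, without overlap. Its difference was 1.01 ± 0.24 (2.02-fold, limma adjusted p = 0.00616) and was lost without GFP 1 (0.86, 0.0886). Its host gene mura, of an E3 ubiquitin ligase, was lower over all depletions (-1.03 ± 0.31) and was called lower in 3 of 9. On Rrp4 arrays, where CR42549 was higher, mura was split. It had 8.18 and 8.32 on Rrp4 1 and 2 and 9.06 and 9.23 on Rrp4 3 and 4, against 8.54 on both GFP arrays. asRNA:CR43964 had 5.73, 5.87, 5.74 and 5.86 on Rrp4 arrays and 5.74 and 5.85 on Ski6, against 3.56 and 3.63 on GFP arrays. Every one of these arrays lay above GFP, by 2.20 ± 0.50 on Rrp4 (limma adjusted p = 0.00469) and 2.20 ± 0.57 on Ski6 (0.0101). Both GFP values lay under the background threshold, as did every array on Csl4, Rrp40 and Rrp47, so CR43964 passed it through the groups where it was high. The Rrp4 call was kept under every array left out, and the Ski6 call was lost without GFP 1 (2.17), Ski6 1 (2.25) or Ski6 2 (2.15).

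asRNA:CR32252, inside CG43367, had 6.43, 7.30, 6.94 and 7.25 on Rrp4 arrays, against 6.36 and 4.69 on GFP arrays. The lowest Rrp4 array was barely above GFP 1, and the difference of 1.46 ± 0.42 (limma adjusted p = 0.0195) was lost without GFP 2 (0.62, 0.348) and was 2.30 without GFP 1. Its host CG43367 was higher over all depletions (2.30 ± 0.50, adjusted p = 0.00296 by limma), with 4.45 to 6.97 on depletion arrays and 2.29 and 5.32 on GFP arrays. The GFP mean of CG43367, 3.81, lay under the background threshold. The unusual spike-in values of the Rrp4 arrays, given above, accompany these calls, and their part was not tested.

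lncRNA:mimi was called on Dis3 and Rrp47 arrays. It had 6.17 and 6.16 on Dis3 arrays and 5.96 and 5.61 on Rrp47, against 4.20 and 3.32 on GFP arrays, with no overlap. The differences of 2.40 ± 0.65 on Dis3 (limma adjusted p = 0.0129) and 2.02 ± 0.65 on Rrp47 (0.0352) were lost without GFP 2 (1.96 and 1.58), without Dis3 2 (2.41) on Dis3, and without Rrp47 1 (1.85) or 2 (2.20) on Rrp47. Both GFP values of mimi lay under the background threshold, as did every array on Rrp6 and Rrp40, so it passed through the groups where it was high. Its neighbour CG13603 was lower over all depletions (-0.29 ± 0.09, adjusted p = 0.0237 by limma).

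Other members fell in single depletions. asRNA:CR43944, inside fbl, a pantothenate kinase gene of coenzyme A synthesis, had 8.14 and 7.28 on Csl4 arrays, 8.14 and 7.35 on Dis3 and 7.44 and 7.59 on Rrp47, against 8.74 and 8.47 on GFP arrays. All 6 arrays lay below both GFP arrays, at -0.90 ± 0.29, -0.86 ± 0.29 and -1.09 ± 0.29 (limma adjusted p = 0.0433, 0.0464 and 0.0146). The Csl4 call was lost without GFP 1 (-0.76), GFP 2 (-1.03) or Csl4 2 (-0.46), and the Dis3 call without GFP 1 (-0.73), GFP 2 (-0.996) or Dis3 2 (-0.47). The Rrp47 call was lost without GFP 1 (-0.96), Rrp47 1 (-1.02) or Rrp47 2 (-1.16). CR43944 was also lower on Dis3 than on core arrays (-0.67 ± 0.22, 0.0356), a call lost without Dis3 2 (-0.28), Mtr3 2 (-0.64), Rrp40 1 (-0.67), Rrp46 2 (-0.67) or Ski6 1 (-0.67), and at -1.07 without Dis3 1. Its host fbl was lower over all depletions (-0.37 ± 0.11), called on Rrp4 and Rrp46 arrays, where CR43944 was not called.

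lncRNA:CR43751 fell on Rrp46 arrays in 1 of its 2 probe sets, with 2.88 and 2.84 on Rrp46 arrays, against 4.89 and 5.94 on GFP arrays. The difference of -2.55 ± 0.55 (limma adjusted p = 0.00349) was kept under every array left out. The other probe set had 5.19 and 5.09 on Rrp46 arrays, against 5.57 and 5.88 on GFP arrays, and was not called; the probe sets' correlation over 22 arrays was 0.117. lncRNA:CR43762 fell on Mtr3 arrays to 2.88 and 2.02, against 6.34 and 5.25 on GFP arrays (-3.35 ± 0.87, limma adjusted p = 0.0114), a call lost without GFP 1 (-2.80) or Mtr3 2 (-2.91). Both Rrp46 values of the CR43751 probe set that fell and both Mtr3 values of CR43762 lay under the background threshold.

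lncRNA:CR44036 had 4.88 and 3.94 on Rrp46 arrays and 4.24 and 3.79 on Rrp6, against 6.31 and 6.28 on GFP arrays. Both falls (-1.89 ± 0.56 on Rrp46 and -2.28 ± 0.56 on Rrp6, limma adjusted p = 0.024 and 0.0154) were lost without GFP 1 (-1.87 and -2.26) or GFP 2 (-1.91 and -2.30). They were also lost without Rrp46 2 (-1.42) and Rrp6 2 (-2.06). Rrp46 2 and both Rrp6 values lay under the background threshold. lncRNA:CR43461 fell on Csl4 arrays, at 4.76 and 3.98 against 6.08 and 5.74 on GFP arrays (-1.54 ± 0.46, limma adjusted p = 0.0277), lost without GFP 1 (-1.37), GFP 2 (-1.71) or Csl4 2 (-1.15). Its host CG3168 was lower over all depletions (-0.91 ± 0.27). lncRNA:CR43337 fell on Mtr3 arrays, at 5.91 and 6.24 against 7.90 and 6.92 on GFP arrays (-1.33 ± 0.39, limma adjusted p = 0.0242), lost without GFP 1 (-0.84), Mtr3 1 (-1.17) or Mtr3 2 (-1.495). Of these 6 falls of 5 lncRNAs, that of CR43751 alone was kept under every array left out.

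lncRNA:CR42862 was measured by 3 probe sets above background, whose signals correlated at 0.896 to 0.959 over the 22 arrays. In the F test among depletions limma called the brightest and the dimmest of the 3 (adjusted p = 0.0212 and 0.0146) and not the other (0.0572), with the highest group mean on Ski6 and the lowest on Rrp47 for all 3. In the order of mean signal, its 3 probe sets had 9.60, 9.23 and 6.85 on Rrp47 1 and 9.83, 9.60 and 7.01 on Rrp47 2. On Rrp6 1 they had 12.80, 12.31 and 10.80 and on Rrp6 2 10.91, 9.82 and 8.47, against 10.15, 9.69 and 7.95 on GFP 1 and 11.46, 10.95 and 9.07 on GFP 2. Csl4 2 and Dis3 2 were low and Csl4 1 and Dis3 1 high in all 3, and none was called in any depletion. The third had group means of 9.63 on Rrp6, 6.93 on Rrp47 and 9.54 on the core. All 3 were lower in the mean of Rrp6 and Rrp47 than on the core (-1.01 ± 0.37, -1.22 ± 0.43 and -1.25 ± 0.42, limma adjusted p = 0.0409, 0.0335 and 0.0282). Without Rrp6 2 they were at -0.54, -0.59 and -0.67 and lost the call, and without Rrp6 1 at -1.49, -1.84 and -1.83. The first probe set kept its call only without Csl4 2, Mtr3 1, Rrp4 1, Rrp4 2 or Rrp6 1, and otherwise stood at -0.54 to -1.07. The second lost it without Csl4 1 (-1.07), Mtr3 2 (-1.14), Rrp47 1 (-1.12) or Rrp47 2 (-1.31) as well, and the third without Rrp47 1 (-1.21) or Rrp47 2 (-1.29). The neighbouring gene CG42846 was lower in 9 of 9 depletions (-1.31 ± 0.16 over all, adjusted p = 1.69e-05 by limma). On the other side pyx was lower over all depletions (-1.41 ± 0.48, limma adjusted p = 0.0433). CG33229, which partly overlaps CR42862, was at -0.16 ± 0.21 and was called in none of the 9.

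Other differences between Rrp6 with Rrp47 and the core were small. CR32368, described above, was higher in the mean of Rrp6 and Rrp47 (0.41 ± 0.09, limma adjusted p = 0.00385), kept under every array left out. Its group means were 11.20 on Rrp6, 10.57 on Rrp47 and 10.48 on the core. Among core subunits, Mtr3 at 10.72 and Rrp46 at 10.75 lay above Rrp47. CR42549 was lower in the mean of Rrp6 and Rrp47 (-0.42 ± 0.16, 0.0426), at -0.15 without Rrp6 2 and -0.70 without Rrp6 1. Its group means were 7.68 on Rrp6, 8.77 on Rrp47 and 8.64 on the core, so of these 2 groups Rrp6 alone lay below the core. Its call was kept only without Csl4 2, Mtr3 1, Rrp4 3, Rrp6 1 or Ski6 1. lncRNA:CR32582 was higher in the mean of Rrp6 and Rrp47 (0.50 ± 0.19, 0.0454), at 0.27 without Rrp6 2. Its group means were 7.80 on Rrp6, 8.61 on Rrp47 and 7.71 on the core. Its call was kept only without Csl4 2, Mtr3 1 or Rrp6 1. In the deposited scaling CR32368 and CR32582 turned sign in this comparison (-0.026 and -0.080). asRNA:CR31084 was called in the F test alone (limma adjusted p = 0.0354), at 4.43 to 6.13 over the 22 arrays.

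**Figure D5:**
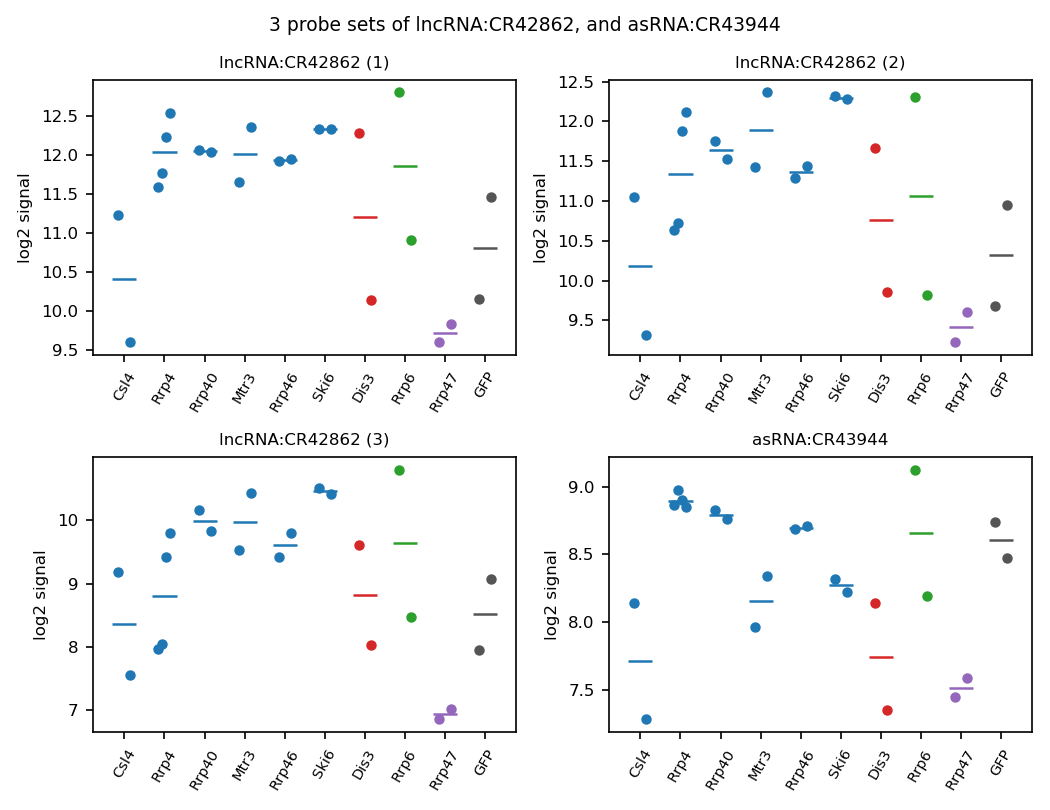
Log2 signal by array for 3 probe sets of lncRNA:CR42862 and for asRNA:CR43944. Points are arrays, bars are group means, and GFP is at the right. In all 4 panels the Rrp47 arrays are low and Csl4 2 and Dis3 2 lie below Csl4 1 and Dis3 1.

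The other 4 probe sets were called in no comparison: 2 of lncRNA:CR43242, the brighter of which had a mean of 6.76 and was the brightest member with no call, lncRNA:CR33963, inside Tis11, which encodes an mRNA decay factor, and the other probe set of CR43751. The brighter CR43242 probe set changed by -0.56 to 0.03 in the 9 depletions and by -0.25 over all, against 0.07 over all for the other.

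Genes of the protein complexes that handle noncoding RNA were read in lists chosen by function. Over all depletions limma called 0 of 5 dosage compensation proteins, where 21.9% of all probe sets were called, 11.6% higher and 10.3% lower. Of the 9 measured snoRNP proteins and assembly factors 1 was higher, the helicase-like assembly factor rept (0.40 ± 0.11, adjusted p = 0.0144), and 0 were lower. Of 19 snRNP core and snRNA biogenesis genes 4 were higher and 0 lower, the Sm proteins SmF (0.61 ± 0.12) and SmE (0.31 ± 0.11) and the Integrator subunits IntS1 (0.47 ± 0.16) and IntS11 (0.36 ± 0.09), the subunit that cuts snRNA precursors. List medians were -0.08, 0.20 and 0.17, against -0.03 over all probe sets tested.

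Among cofactors of nuclear RNA surveillance, 12 were above background, with a median of 0.24. Over all depletions 2 were higher and 0 lower, where 11.6% of all probe sets tested were higher and 10.3% lower. Trf4-1, a noncanonical poly(A) polymerase that tags RNA for the exosome, was at 1.42 ± 0.41 (limma adjusted p = 0.0175). Its GFP mean of 3.93 lay under the background threshold, so it passed through the depletions where it was higher. Rai1, a partner of the nuclear 5′ exonuclease Rat1, was at 0.65 ± 0.21 (limma adjusted p = 0.0336). Mtr4, the helicase that feeds RNA to the exosome, was at 0.21 ± 0.12 and was not called. Of the 7 hemocyte markers above background, 2 were higher and 2 lower over all depletions by limma (11.6% and 10.3% of all probe sets tested). Pxn, an extracellular matrix peroxidase, was at 2.97 ± 0.21 (limma adjusted p = 1.73e-08), called higher in 9 of 9 depletions. He was at 0.91 ± 0.25 (limma adjusted p = 0.0158). The GFP means of Pxn (3.29) and He (4.22) lay under the background threshold, so both passed it through the depletions. Hml, a clotting protein, was at -1.57 ± 0.31 (limma adjusted p = 0.00133), and crq, a receptor for apoptotic cells, at -0.58 ± 0.19 (0.0385). Among markers of other cell types, bam, a germline differentiation gene, was higher by 2.27 ± 0.32 over all depletions. Its group means reached 6.66, against 3.34 on GFP arrays, under the background threshold, while the germline gene vas stayed between 4.19 and 4.79. The part of any other cell type in these results was not tested.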

How the data were processed

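RNA of S2 cells was measured on 22 one-colour arrays in 10 groups. The deposited values are linear intensities, 1 per probe set, which the authors produced with GCOS per the submitters' processing notes (version not given in the sources used here); their trimmed means (2% cut at each end) were 500 on the Rrp4 arrays and 125.9 to 345.6 on the others, so scaling differed. The small number of arrays limits precision. Genes were named from the platform annotation and RefSeq symbols (Release 6 plus ISO1 MT); the files name no build, so no position is given. There were 0 other columns of per-sample values.

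In R 4.3.3, 183 control probe sets were left out, arrays were quantile normalized, values were floored at a signal of 3.234 (the 10th percentile) and taken as log2. The 9385 probe sets that reached the median of mean signal were fitted with limma 3.58.1 (10 group means, intensity trend, 12 residual degrees of freedom), and a call is a two-sided Benjamini-Hochberg adjusted p under 0.05 over all of them. The script was tested on simulated data. The core is Csl4, Mtr3, Rrp4, Rrp40, Rrp46 and Ski6.

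Members and lists were chosen with earlier results of these data known. Named were every member above background called in any comparison, the brightest with no call, called list genes, and the 3 probe sets most like the member with most calls. Of the coding neighbours, called or not, some were named and the others were only counted. Mtr4, vas, bam, CR43242's other probe set and members below background were named in addition. Deviations of same-numbered arrays from their group means correlated over 0.1 in 4 of 45 pairs of groups for each number: Csl4, Dis3 and Rrp6 with each other (0.306 to 0.411) and GFP with Mtr3 (0.165). Others ran opposite: Mtr3 with Dis3 (-0.348), Rrp6 (-0.315) and Csl4 (-0.218), and GFP with Dis3 (-0.219), Rrp6 (-0.183) and Csl4 (-0.178). The remaining pairs did not exceed 0.1 in size. In a group of 2 arrays the deviations mirror each other, so outside Rrp4 both numbers gave the same values. Numbers were not used as pairs across the series. Alternatives were the values as deposited, median centring, filters, floor, replicate block, no intensity trend, fewer arrays and each array left out.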

Additional observations from a re-analysis of the deposited data

How the results depend on the processing

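No array values of the 22 named members stood apart within the 4 Rrp4 arrays by Dixon's criterion (0 of 22). With 4 arrays it looks for 1 array apart and cannot flag a split of 2 against 2, as seen for Rrp4 itself. The signed calls of single probe sets numbered 69. Under the floor at the 20th percentile all 69 were kept, under median centring 60, under the filter on the highest group mean 63 with no intensity trend 61, with no filter 49, in the deposited scaling 59 and without Csl4 2, Dis3 2 and Rrp6 2 together 59; of 53 that could be refitted on 2 groups alone, 22 were kept. The 9 calls on Rrp4 were all kept when its arrays 3 and 4 stood for the group, and 6 of them when arrays 1 and 2 did. In the deposited scaling the median of all probe sets moved by up to 1.58 (Rrp4), so counts there were 24 on Rrp4, 19 on Mtr3, 19 on Ski6, 10 over all depletions, 26 in the F test, 19 for Dis3 against the core and 16 for Rrp6 and Rrp47 against the core. Relative to the core on Rrp6 and Rrp47 arrays, the deposited values turned CR32582 to -0.080 and CR32368 to -0.026, beside a shift of -0.45 in the median of all probe sets. Median centring called 2 on Rrp40. With no filter, where all 137 were tested in place of 26, limma called 1 on Csl4, 2 on Rrp40, 5 on Rrp46, 3 on Rrp47, 5 for Dis3 against the core (3 of them among the 111 not above background) and 4 for Rrp6 and Rrp47 against the core. The filter on the highest group mean, which tested 56, called 5 for Dis3 against the core. The replicate block called 2 on Rrp40, 8 in the F test and 4 for Rrp6 and Rrp47 against the core, and 17 of 69 single calls were lost with it. In most pairs of groups same-numbered arrays did not deviate together. Between GFP or Mtr3 and Csl4, Dis3 or Rrp6 they deviated oppositely. They deviated together in Csl4, Dis3 and Rrp6. Without those 3 arrays, which deviate together, counts were 7 on Rrp40, 13 on Mtr3, 9 on Ski6, 7 on Rrp6, 11 on Rrp47 and 9 over all depletions. With the 2 groups fitted alone they were 1 on Csl4, 2 on Rrp40, 2 on Rrp46, 1 on Dis3, 0 on Rrp6 and 3 on Rrp47. With each array left out in turn, counts ran from 1 to 4 on Csl4, 6 to 9 on Rrp4, 2 to 3 on Rrp40, 4 to 6 on Mtr3, 3 to 5 on Rrp46, 2 to 5 on Ski6, 4 to 7 on Dis3, 2 to 5 on Rrp6, 1 to 6 on Rrp47, 3 to 6 over all depletions, 10 to 18 in the F test, 2 to 5 for Dis3 against the core and 3 to 12 for Rrp6 and Rrp47 against the core. The share of all probe sets called under each setting is not given here, so these counts do not separate the members from the array as a whole. The causes of these changes were not tested. Where a group is left with 1 array, that array is assumed to vary like the other groups.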
